A study of Rattus norvegicus with 16 samples.

Results

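Gene expression in the rat knee joint 14 days after an injection of monosodium iodoacetate (MIA) was compared with expression 2 days after it, to describe which transcripts of inflammation and of tissue repair differed between the acute and the intermediate phase of the model. The comparison rests on 8 of the 16 arrays of the study, 4 of day 14 and 4 of day 2, assigned to their day by their labels alone, and on all 36685 probe sets of the Affymetrix Rat Gene 2.0 ST array. Both groups were male Wistar rats given 3 mg of MIA once in the right knee. The 4 arrays of intact animals, which received no injection, gave the level of the uninjected knee, and the 4 arrays of day 28 entered the fit without being described here. Saline-injected animals were not analysed here, so the effect of injecting fluid and that of MIA cannot be told apart in a difference from intact animals, and the age of the animals is not given in the sources used here. The tissue was the meniscus with the articular cartilage of tibia and femur, and it took in small pieces of the joint capsule and of bone. RNA of 2 rats was pooled per array, so 4 arrays stand for 8 rats. Because whole tissue was measured, a lower share of cells of a type and less RNA per cell of that type cannot be told apart in any value below.

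MIA blocks glycolysis and kills chondrocytes, and its injection into a joint is known for an early phase of inflammation of the synovium and a later phase of cartilage loss and remodelling. In an injured tissue, monocytes enter from the blood and become macrophages, which release chemokines and interleukin-1, clear dead cells and then leave or change state. Fibroblasts follow, laying down collagens and the proteins that bind them, while proteases of the MMP and ADAMTS families cut the matrix that is replaced.

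At an adjusted p under 0.05 in limma's moderated test, day 14 exceeded day 2 in 2460 of the 36685 probe sets (6.71%) and fell short of it in 2871 (7.83%). A further threshold of a 2-fold difference left 412 higher (1.12%) and 327 lower (0.891%). Counted as genes with exactly 1 symbol, each read from its brightest probe set, 1748 of 18166 were higher (9.62%) and 2120 lower (11.7%), with a median log2 difference over all genes of 0.0021. Arrays correlated at 0.985 to 0.99 within day 2, at 0.981 to 0.992 within day 14 and at 0.967 to 0.985 between the days, across probe sets, which are not independent replicates. Counts of listed genes below are read against these shares of 9.62% higher and 11.7% lower. The lists were chosen with earlier results of these data known, so this reading is a description and not a test. All values below are RMA log2 signals, differences are log2 differences of group means with their standard error (SE), and rose, fell, higher and lower are used for transcripts past the threshold. For part of the genes and lists the difference from intact animals is given too, and since these comparisons share arrays they are set side by side only. Where it is not given, a rise or fall between the days does not tell the position against intact animals.

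Transcripts of skeletal muscle, of neutrophils and of erythroid and marrow progenitor cells differed between arrays. Their part in the other results was not tested beyond the fits named below. The mean log2 signal of 25 skeletal muscle transcripts was 6.45 to 8.36 at day 2 and 8.47 to 11.23 at day 14, with the highest value on day 14 replicate 3, against 6.73 to 9.89 in intact animals. Neutrophil transcripts averaged 8.76 to 9.23 at day 2 and 7.64 to 9.54 at day 14. Erythroid and marrow progenitor transcripts averaged 8.50 to 9.50 at day 2 and 7.03 to 9.21 at day 14, and in both lists day 14 replicate 2 was the highest array of its day. The cartilage list averaged 6.8 to 8.1 at day 2 and 7.3 to 7.9 at day 14, and the tendon list 6.9 to 7.8 and 8.6 to 9.0. In both lists replicates 3 and 4 were the lowest arrays of day 2. Neither list served as a covariate, and the part of this spread in the other results was not tested. The means of the macrophage, mitosis, collagen and activated fibroblast lists did not overlap between the days.

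**Figure D1:**
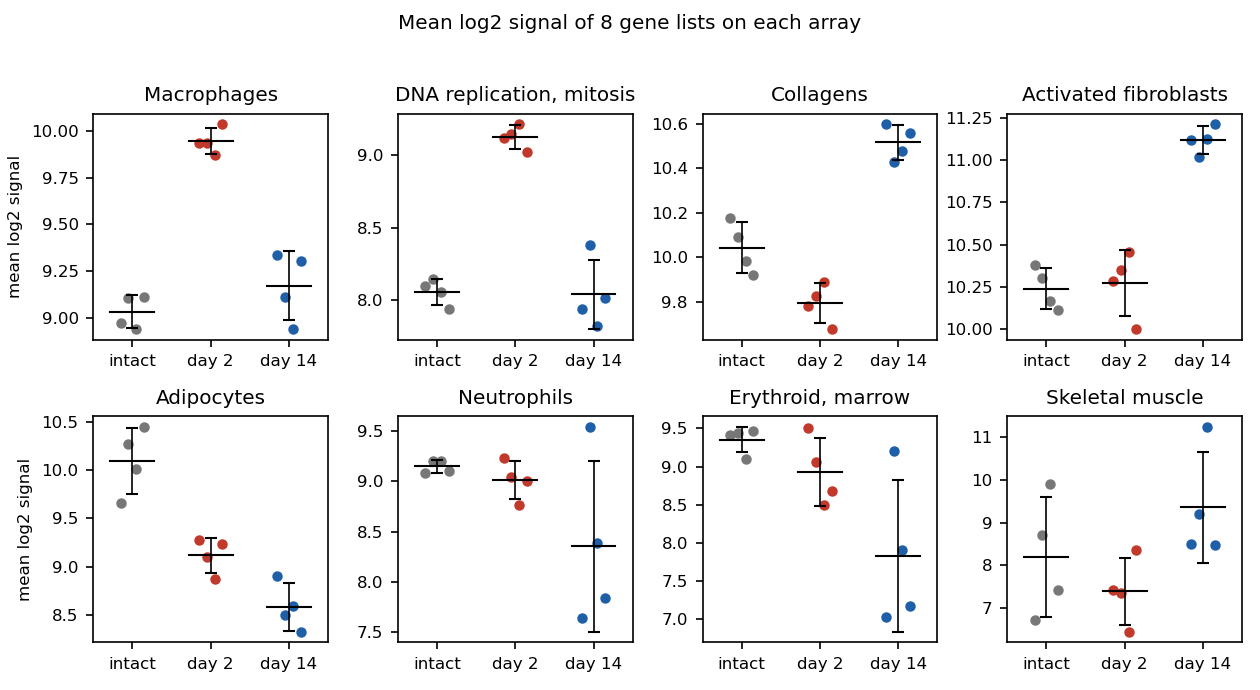
Mean log2 signal of 8 gene lists (y axis) on each array of intact animals, day 2 and day 14 (points, 4 arrays per group; line and bar, mean and SD). Macrophage and mitosis lists lie higher on every day 2 array than on any day 14 array, collagens and activated fibroblast genes lie lower, and the neutrophil, erythroid and muscle lists are widely spread at day 14.

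The genes with the largest increase between the days, among those whose day 14 arrays all lay above the day 2 arrays, were of several kinds. They included C1qtnf3, a secreted protein of the C1q and TNF related family, Mmp12, the elastase of macrophages, Egfl6, a secreted EGF-like matrix protein, Fmod, the collagen-binding proteoglycan fibromodulin, Tnmd, the tendon and ligament protein tenomodulin, Col6a6, a chain of collagen VI, and Kera, the proteoglycan keratocan. The muscle genes Pvalb, Casq1, Myl11, Eno3, Myom2 and Pgam2 stood among the same 15 genes, with differences of 2.44 to 3.58. Leaving out single arrays ended the calls of Casq1, Myl11, Eno3, Myom2 and Pgam2 in 4 to 6 of 8 fits. Gpr15lg, whose product binds the receptor Gpr15, rose 5.15-fold. The largest difference of all was that of Gnas, the stimulatory G protein subunit of an imprinted locus with several promoters. Its brightest probe set read 5.67 to 7.18 on the day 2 arrays and 10.01 to 10.82 on the day 14 arrays (difference 3.96, SE 0.34, adjusted p = 3e-06). A second probe set of Gnas differed by 1.40 (adjusted p = 2.4e-05), so the size of its change was not the same over its probe sets, although both rose.

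The genes with the largest decrease, among those whose day 14 arrays all lay below the day 2 arrays, were mostly of leukocytes. Ly49si1, a receptor of natural killer cells, read 7.87, 7.91, 8.55 and 8.21 at day 2 and 4.94, 5.10, 2.97 and 4.75 at day 14 (difference -3.69, SE 0.41, adjusted p = 2.1e-05). Klrc3, of the NKG2 receptor family, read 6.95 to 7.49 at day 2 and 3.76 to 5.50 at day 14 (-2.64, SE 0.28). Both belong to families of near-identical genes, so signal of relatives on their probes cannot be told apart from their own. The other genes of this group were Cd163, Ccl6, Clec10a, Slpi, Stab1 and Tlr1, described below, with Cd300c2 (-2.0), an immunoreceptor of myeloid cells, Ms4a6a (-1.63), a membrane protein of macrophages, Npl (-1.70), an enzyme of sialic acid breakdown, and Slc4a5 (-1.68), a bicarbonate transporter. Esco2 (-1.61), which joins sister chromatids, Crabp1 (-1.74), a retinoic acid binding protein, and the ErbB receptor Erbb3 (-1.66) completed it.

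**Figure D2:**
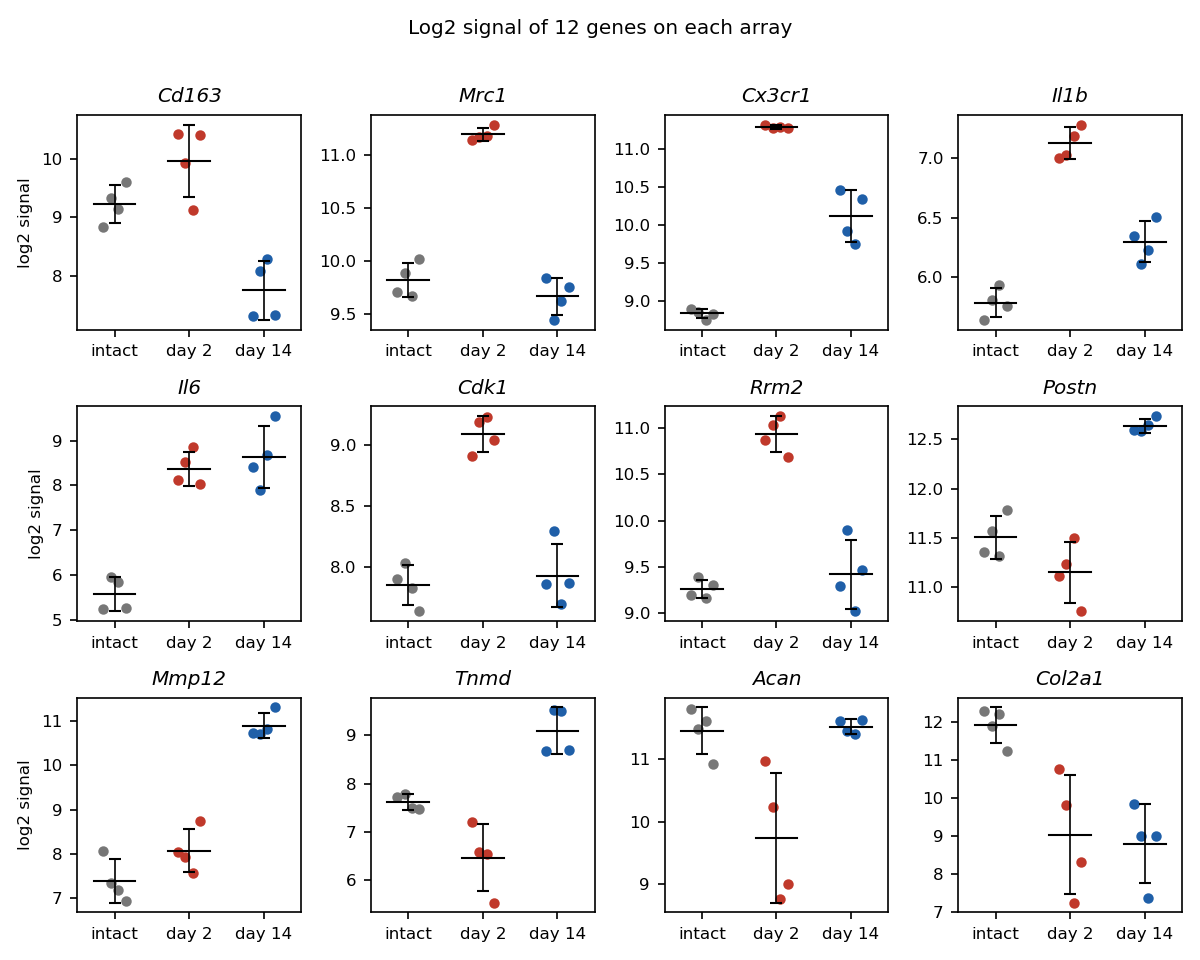
Log2 signal (y axis) of 12 genes on each array of intact animals, day 2 and day 14 (points, 4 arrays per group; line and bar, mean and SD). Cd163, Mrc1, Cx3cr1, Il1b, Cdk1 and Rrm2 are lower on every day 14 array than on any day 2 array, Postn, Mmp12, Tnmd and Acan are higher, and the days overlap in Il6 and Col2a1.

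Macrophage transcripts fell between the days, from levels above those of intact knees to levels near them. Of 35 measured markers of macrophages and monocytes 25 fell by day 14 and none rose (background 11.7% and 9.62%), with a median difference of -0.74. The median stood 1.12 above intact animals at day 2, when 27 were higher and 2 lower (19.8% and 15.2% of all genes), and 0.29 above at day 14, when 15 were higher and 4 lower (12.2% and 8.74%). Cd163, the scavenger receptor for haptoglobin-bound haemoglobin, read 10.43, 9.92, 9.12 and 10.41 at day 2 and 7.31, 8.08, 8.29 and 7.34 at day 14. It fell 4.64-fold (SE 0.28 on the log2 scale, adjusted p = 6.2e-05), to 1.47 below intact animals. Clec10a, a lectin of macrophages and dendritic cells, read 8.85 to 9.62 and then 7.01 to 7.42 (-2.05, SE 0.18). Mrc1, the mannose receptor, was close to uniform within each day, at 11.14, 11.17, 11.18 and 11.28 and then 9.84, 9.44, 9.62 and 9.75 (-1.53, SE 0.12), and its day 14 mean was 0.15 below that of intact animals. Stab1, a scavenger receptor that clears matrix fragments and dying cells, behaved alike in level, at 10.77 to 11.01 and 8.93 to 9.37 (-1.67, SE 0.10).

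Not every macrophage gene came back to the intact level. Cx3cr1, the fractalkine receptor of monocytes, read 11.32, 11.27, 11.28 and 11.28 at day 2 and 10.46, 9.91, 9.75 and 10.34 at day 14. It fell by 1.17 (SE 0.14, adjusted p = 3.7e-05) and was still 1.28 above intact animals. Cd68, a lysosomal glycoprotein of macrophages, was 1.23 above intact at day 2 and 0.90 above at day 14, and its difference between the days of -0.33 was not called (adjusted p = 0.11). Aif1 (-1.59), a marker of activated macrophages, Siglec1 (-1.54), the sialic acid receptor of resident macrophages, Adgre1 (-0.94), Csf1r (-0.75), the receptor of the macrophage growth factor, and Ccr2 (-0.91), the receptor that brings monocytes into tissue, all fell. Vsig4, a complement receptor of resident macrophages, stood apart, 2.98 below intact animals at day 2 and 2.76 below at day 14, with no call between the days (0.22, adjusted p = 0.67). With the muscle and marrow means as covariates 19 of the 35 were lower, without day 14 replicates 2 and 3, 20, and by a t-test with unequal variances, 9.

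Genes of antigen presentation showed the same direction. Of 19 transcripts of dendritic cells and MHC class II, 12 were lower at day 14 and none higher (background 11.7% and 9.62%), with a median of -0.69. By a t-test with unequal variances 4 of them were lower. Flt3, the receptor of a growth factor of dendritic cell precursors, read 8.72 to 9.03 at day 2 and 7.19 to 7.48 at day 14, against 6.85 to 7.40 in intact animals (-1.47, SE 0.12, adjusted p = 1.3e-06). The regulator of MHC class II genes Ciita (-1.05), the transcription factor Irf8 (-1.30), the class II chain RT1-Da (-0.93) and the invariant chain Cd74 (-0.46) fell with it, each to within 0.23 of intact animals. Class II genes of the rat form a family of like sequences, so the probes of 1 member can take up signal of others.

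Lymphocyte transcripts moved in part. Of 25 markers of T and natural killer cells 5 were lower and none higher (background 11.7% and 9.62%). These were Cd8a (-1.57) and Cd8b (-1.46), chains of the CD8 co-receptor, the adhesion receptor Cd2 (-1.36), and the natural killer receptors Klrk1 (-1.0) and, named after its value was seen, Klrd1 (-0.39). The T cell receptor component Cd3e was near the intact level on both days (0.16 between them, adjusted p = 0.63). Cd8a, Cd2 and Klrk1 are also found on natural killer cells or myeloid cells of the rat. Of 18 B and plasma cell markers 2 were lower and 1 higher (background 11.7% and 9.62%). Cd22 (-0.98) and Blnk (-1.04), both of B cell receptor signalling, fell and the transcription factor Ebf1 rose (0.48), with 5 lower without day 14 replicate 2, while Cd79a (-0.68, adjusted p = 0.30) and Jchain (-0.48, adjusted p = 0.74) were not called. None of 10 mast cell markers was called in either direction, among them the protease Cpa3 (-0.32, adjusted p = 0.58).

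Few transcripts of neutrophils or of erythroid and marrow progenitor cells were called. Of 22 neutrophil markers 2 were lower, the receptor Csf3r (-1.37) and Mcemp1 (-1.04, lost in 7 of 8 fits without 1 array), and 1 was higher, the gelatinase Mmp9 (1.07), which other cells also make. S100a8, a calcium-binding protein that fills neutrophils, read 9.28, 9.21, 9.00 and 9.33 at day 2 and 6.39, 10.03, 8.27 and 6.88 at day 14. Its difference of -1.31 had an SE of 0.77 and was not called (adjusted p = 0.33), and neither were S100a9 (-1.37, adjusted p = 0.27) or the peroxidase Mpo (-1.03, adjusted p = 0.35). None of 13 erythroid and marrow progenitor markers was called, at a median of -1.15. Without day 14 replicate 2, 7 neutrophil and 12 erythroid and marrow markers were lower.

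Several cytokine genes fell. Of 28 genes of the IL-1, IL-6 and TNF families and their receptors 11 were lower at day 14 and 1 was higher. Il1b, which encodes interleukin-1 beta, read 7.00, 7.03, 7.19 and 7.28 at day 2 and 6.35, 6.11, 6.23 and 6.51 at day 14 (-0.83, SE 0.10, adjusted p = 4.3e-05), and was still 0.52 above intact animals. Nlrp3, the sensor of the inflammasome that releases interleukin-1 beta, read 8.6 to 8.80 and then 7.23 to 7.59 (-1.32, SE 0.10), within 0.08 of intact animals. Il18 (-1.24), a further substrate of the inflammasome, the IL-33 receptor Il1rl1 (-1.15) and the receptor chain Il6r (-0.95) fell too, and Tnf fell by 0.44 (adjusted p = 0.045), a call that was lost in 6 of the 8 fits that left out 1 array (adjusted p up to 0.14). The single gene that rose, named after its value was seen, was the receptor chain Il11ra1 (0.58). Il6 did not follow. It read 8.11, 8.51, 8.85 and 8.03 at day 2 and 8.4, 7.90, 8.67 and 9.55 at day 14, and both days stood far above the 5.23 to 5.96 of intact animals. Its difference between the days was 0.25 with an SE of 0.38 (adjusted p = 0.78).

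Among 29 chemokines 6 were lower and 3 higher, against 11.7% and 9.62% of all genes, so the count that rose was near the background. Ccl6, which attracts macrophages in rodents, read 10.47, 10.23, 9.76 and 10.57 at day 2 and 7.92, 8.57, 7.94 and 8.09 at day 14 (-2.12, SE 0.28, adjusted p = 8.3e-05). The monocyte chemokine Ccl12 (-1.39), the platelet factor Pf4 (-1.20) and the neutrophil chemokines Cxcl6 (-1.18) and Cxcl1 (-0.93) fell as well, as did Ccl21 (-0.83), named after its value was seen and lost in 5 of 8 fits without 1 array. The main monocyte chemokine Ccl2 read 11.97 to 12.09 at day 2 and 11.57 to 12.07 at day 14, overlapping, and was not called (-0.24, adjusted p = 0.28), and Ccl7 was 3.13 above intact animals at day 2 and 2.71 above at day 14. The 3 that rose, named after their values were seen, were Ccl9 (0.86), Ccl22 (0.91) and Cxcl14 (0.99). Of 15 chemokine receptors Ccr2 and Cx3cr1 fell and Ackr3, a scavenger of Cxcl12, rose by 1.44 (SE 0.10) from a day 2 level 1.56 below intact animals. With the muscle mean as a covariate 3 chemokines were lower, and without day 14 replicate 2, 5 were higher, as were 3 of the receptors.

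Receptors that sense microbes and damage fell among the Toll-like receptors. Of 22 genes of Toll-like receptor and NF-kB signalling 7 were lower and 1, Rela (0.29), named after its value was seen and lost in 6 of 8 fits without 1 array, was higher. Tlr1 read 8.30 to 8.71 at day 2 and 6.62 to 7.07 at day 14 (-1.65, SE 0.12, adjusted p = 8.9e-07). Tlr7, a sensor of single-stranded RNA, fell by 1.45 and Tlr2, the partner of Tlr1 for bacterial lipoproteins, by 0.95, whereas the endotoxin receptor Tlr4 was not called (-0.23, adjusted p = 0.052). Of 15 colony stimulating factors and IL-4 and IL-10 receptor genes 6 were lower and none higher, among them Il10ra (-1.02), Il4r (-0.97) and Il10 (-0.52), which themselves restrain or redirect macrophages.

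Interferon-stimulated genes moved in part. The median of 28 measured genes against intact animals was -0.10 at day 2 and -0.21 at day 14. At day 2, 5 were above intact animals and 3 below (19.8% and 15.2% of all genes). At day 14 none was above and 8 were below (12.2% and 8.74%). Between the days 5 of them were lower and none higher (background 11.7% and 9.62%), at a median of -0.23. The 5 were the immunoproteasome chains Psmb9 (-0.76) and Psmb8 (-0.48), the peptide transporter Tap1 (-0.42), the transcription factor Stat2 (-0.39) and, named after its value was seen, Ifi35 (-0.35). Isg15 (0.03, adjusted p = 0.96), Mx1 (-0.67, adjusted p = 0.29) and Irf7 (-0.06, adjusted p = 0.94), 3 transcripts that interferon induces strongly, were not called. With both marker means as covariates 2 of the 28 were lower, and the call of Psmb8 was lost in 6 of 8 fits without 1 array.

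Complement and prostaglandin genes moved in both directions. The complement genes that fell were C1qa (-0.54), C3ar1 (-1.16), a receptor of myeloid cells for a fragment of C3, and properdin, Cfp (-1.06). Those that rose were C1s (1.35) and Cd55 (1.09), a brake on complement and a marker of the synovial lining, with C1r (0.59), Cfb (0.40) and the C1 inhibitor Serping1 (0.97), named after their values were seen. C3 itself was not called (0.03, adjusted p = 0.97). Of 19 prostaglandin genes Pla2g4a (-0.64), which frees arachidonic acid, and Tbxas1 (-0.55) fell, while Ptgs2 (0.48, adjusted p = 0.047), the inducible cyclooxygenase, Ptges (0.70), which makes prostaglandin E2 from its product, and the receptor Ptger1 (0.58) rose. Ptgs1 (-0.53), Ptger2 (-0.44) and Ptger4 (0.48), named after their values were seen, were called as well. In this paragraph, single arrays left out ended the calls of Ptgs2 in 8 of 8 fits (adjusted p up to 0.13), Ptger2 in 7 and Cfb in 4. Hpgd, which degrades prostaglandins, stayed 1.78 and 2.04 above intact animals on the 2 days (0.27 between them, adjusted p = 0.55).

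Genes for the uptake of dying cells moved both ways. Among 24 genes of efferocytosis and pro-resolving mediators 8 fell, with Mrc1 and Stab1 as given above, the uptake receptor Mertk (-0.63), arginase, Arg1 (-1.05), and the cholesterol exporter Abca1 (-0.93) of macrophages. The 5 that rose were the bridging protein Gas6 (0.65) and, named after their values were seen, its relative Pros1 (0.69), the bridging protein Mfge8 (0.42) and the receptors Axl (0.32) and Tyro3 (0.24). Without day 2 replicate 2, 3 or 4 or day 14 replicate 1 or 4, 3 of the list rose, Axl being lost in 5 of the 8 such fits and Tyro3 in 7. Annexin A1, Anxa1, was not called (0.25, adjusted p = 0.051). Of 23 lysosomal genes 9 fell and 1, Gla (0.36), named after its value was seen and lost in 6 of 8 such fits, rose. Cathepsin C, Ctsc (-0.73), legumain, Lgmn (-0.62), and cathepsin D, Ctsd (-0.47), fell but remained 0.44, 0.29 and 0.52 above intact animals, and Ctsb was not called (-0.06, adjusted p = 0.67). With the muscle mean as a covariate 3 lysosomal genes were lower, and without day 14 replicates 2 and 3, 4.

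Slpi, an inhibitor of neutrophil elastase made by macrophages and epithelia, read 11.18, 11.17, 11.13 and 11.02 at day 2 and 9.2, 9.09, 8.95 and 9.73 at day 14. It fell by 1.88 (SE 0.18, adjusted p = 5.2e-06) and was the only protease inhibitor of 18 that fell. At day 14 it was still 1.07 above intact animals.

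The DNA replication and mitosis genes were the most uniform group. All 54 measured members were lower at day 14 (background 11.7%), by 0.55 to 1.54, and in 53 the arrays of the days did not overlap (15.1% of all genes). Their median was 1.09 above intact animals at day 2, when 53 were called higher, and 0.0007 from intact at day 14, when 5 were higher and 2 lower. Cdk1, the kinase that starts mitosis, read 8.91, 9.19, 9.22 and 9.04 at day 2 and 7.87, 8.30, 7.70 and 7.87 at day 14 (-1.16, SE 0.13, adjusted p = 2.4e-05). Intact arrays read 7.64 to 8.03, so day 14 replicate 2 alone lay above them. Ttk, a kinase of the spindle checkpoint, fell by 1.54 (SE 0.15), from 8.53 to 8.91 down to 6.87 to 7.60. Rrm2, the ribonucleotide reductase subunit of dividing cells, fell by 1.51 (SE 0.17), from 10.69 to 11.13 down to 9.02 to 9.90. Mki67, the common marker of cycling cells, read 11.47 to 11.75 at day 2 and 10.28, 11.13, 10.09 and 10.35 at day 14 (-1.17, SE 0.19), and the helicase subunit Mcm5 (-1.37), the licensing factor Cdc6 (-1.37), and the topoisomerase Top2a (-1.14) also fell. In Cdk1, Ttk, Rrm2 and Mki67 the highest day 14 array was replicate 2, the array with the most marrow signal, and the part of marrow in these values was not tested. With both marker means as covariates 49 of the 54 were lower, and without day 14 replicates 2 and 3, 53.

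Promoters of such genes often carry 2 short sequence elements, the cell cycle homology region TTTGAA and the CCAAT box, on which the repressor complex of resting cells and the factor NF-Y act. RefSeq promoters on GRCr8, from 250 bases before to 50 after the start, were at hand for 42 of the 54 genes. TTTGAA stood on either strand in 20 of them (47.6%, against 18.1% of 27457 promoters), CCAAT in 31 (73.8% against 37.7%) and both in 16 (38.1% against 7.25%). A match is a run of letters and not a shown site. The promoters of Cdk1 (chr20:19265043-19265342, + strand), Ttk (chr8:93634389-93634688, + strand) and Top2a (chr10:84473044-84473343, - strand), 3 named members that hold both elements, show the letters in capitals, with TTCAAA and ATTGG as the other strand's form.
Cdk1: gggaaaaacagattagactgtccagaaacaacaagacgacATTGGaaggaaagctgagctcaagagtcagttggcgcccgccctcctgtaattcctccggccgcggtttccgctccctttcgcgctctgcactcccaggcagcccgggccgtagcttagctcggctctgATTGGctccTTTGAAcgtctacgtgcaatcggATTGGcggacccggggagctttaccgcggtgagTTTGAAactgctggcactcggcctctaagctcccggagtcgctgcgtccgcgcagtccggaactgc
Ttk: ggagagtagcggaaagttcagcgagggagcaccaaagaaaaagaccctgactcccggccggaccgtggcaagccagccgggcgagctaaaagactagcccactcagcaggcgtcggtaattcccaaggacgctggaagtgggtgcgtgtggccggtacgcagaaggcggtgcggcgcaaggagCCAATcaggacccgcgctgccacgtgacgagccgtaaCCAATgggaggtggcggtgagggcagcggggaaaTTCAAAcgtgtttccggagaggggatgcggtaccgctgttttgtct
Top2a: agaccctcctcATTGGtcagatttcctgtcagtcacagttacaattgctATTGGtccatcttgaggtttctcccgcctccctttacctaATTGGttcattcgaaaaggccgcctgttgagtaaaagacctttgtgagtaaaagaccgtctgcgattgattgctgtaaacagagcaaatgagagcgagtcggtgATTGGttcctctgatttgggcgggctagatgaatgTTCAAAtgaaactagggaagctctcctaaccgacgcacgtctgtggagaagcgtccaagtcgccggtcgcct

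**Figure D3:**
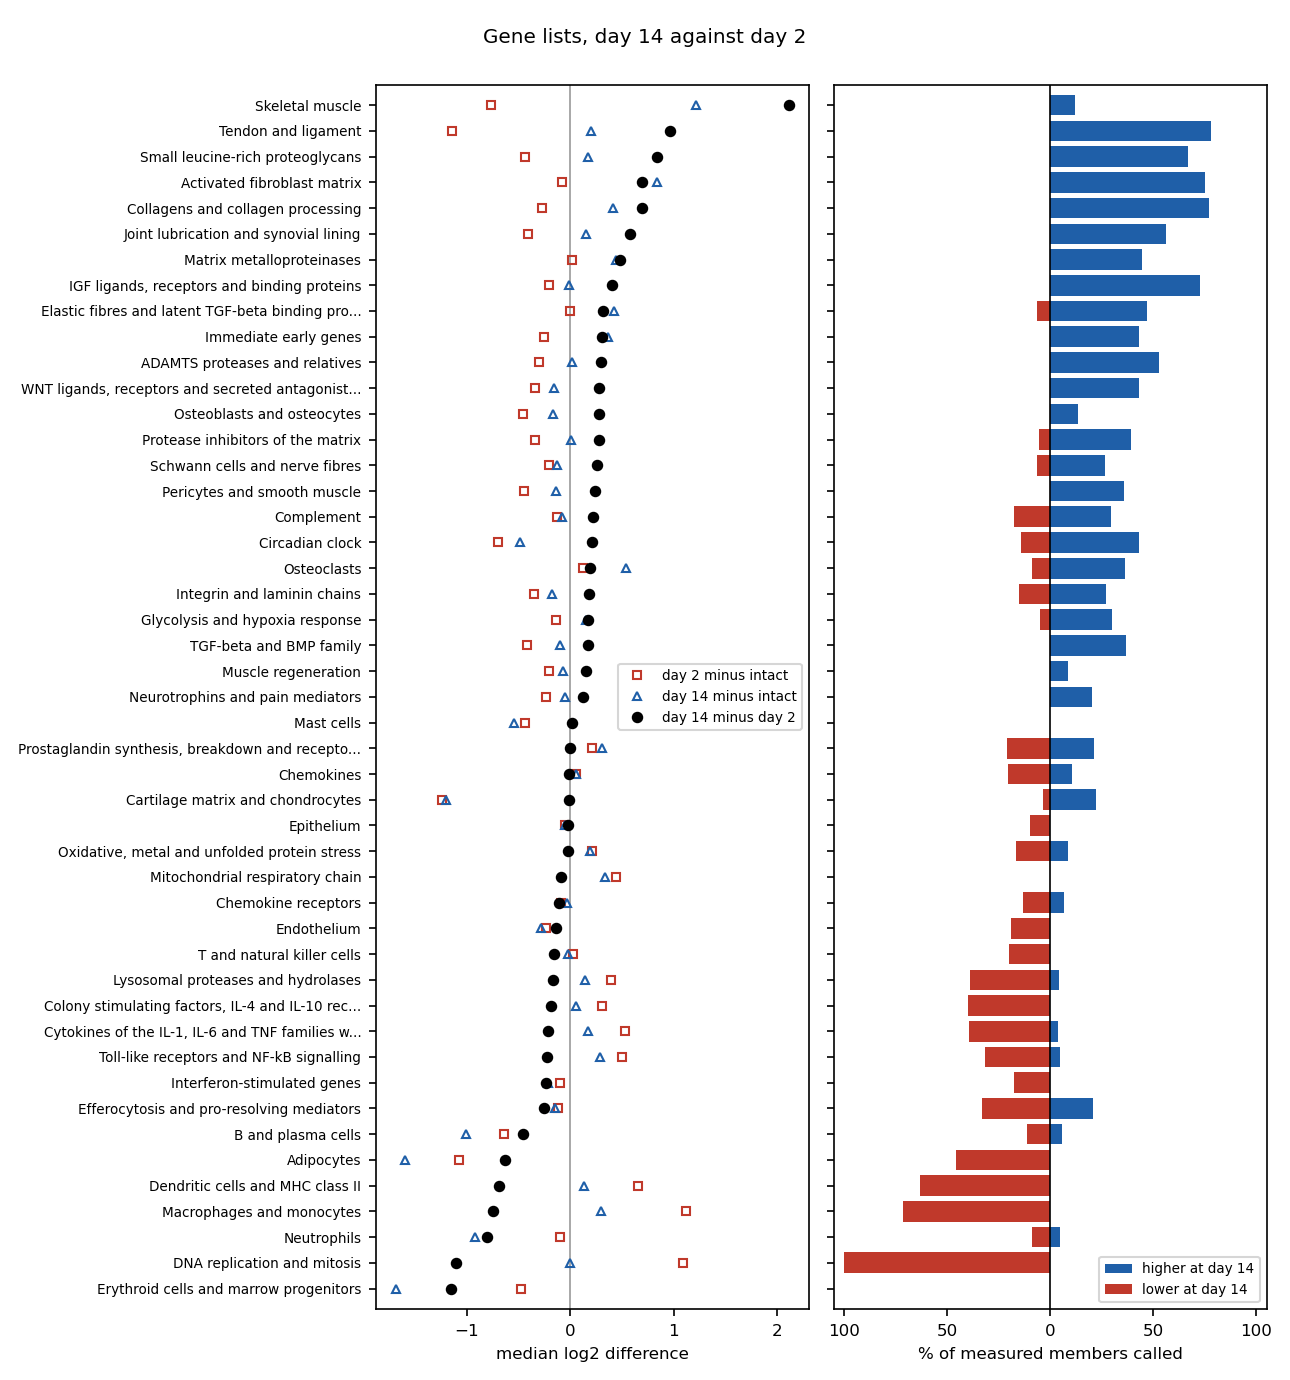
The 47 gene lists, ordered by median difference between the days (left, x axis, log2; black points, day 14 minus day 2; red squares, day 2 minus intact; blue triangles, day 14 minus intact) and the percentage of measured members called at day 14 against day 2 (right, x axis; blue, higher; red, lower). Mitosis genes are called lower in 54 of 54 and collagens higher in 27 of 35, while the muscle and erythroid lists have large medians with 3 and 0 members called.

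Most collagen genes rose between the days. Of 35 genes of collagens and their processing 27 were higher and none lower (background 9.62% and 11.7%), at a median of 0.69. The median was 0.27 below intact animals at day 2 and 0.41 above at day 14. Col1a1, the main chain of collagen I, read 12.76, 12.85, 12.75 and 12.86 at day 2 and 13.27, 13.25, 13.16 and 13.22 at day 14, so its rise of 0.42 was small but far outside its spread (SE 0.06, adjusted p = 0.00027). Col3a1, of the collagen of early scar, rose by 0.83. Col14a1, which binds to fibrils of collagen I, read 9.94 to 10.83 at day 2 and 11.96 to 12.14 at day 14 (1.58, SE 0.15), starting from 1.33 below intact animals. Col8a1 (1.46), Col5a3 (1.44) and Col6a3 (1.26) started near or a little below the intact level and ended 1.38, 1.33 and 0.88 above it. The enzymes Adamts2 (1.20) and Adamts14 (1.08), which trim procollagens, rose with them, while the crosslinking oxidase Lox was not called (0.41, adjusted p = 0.13).

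Matrix proteins of activated fibroblasts behaved alike, with 18 of 24 higher and none lower and a median of 0.70. C1qtnf3 read 7.28, 6.84, 6.21 and 5.86 at day 2 and 9.64, 9.91, 9.96 and 9.57 at day 14, a 9.32-fold rise (adjusted p = 1.1e-06) to 2.72 above intact animals. Periostin, Postn, a matrix protein of healing tissue, read 10.76 to 11.50 at day 2 and 12.58 to 12.74 at day 14 (1.49, SE 0.14, adjusted p = 5.4e-06), against 11.32 to 11.78 in intact animals. Spon2 (2.24), a secreted matrix protein, and Thbs4 (2.15), a thrombospondin of tendon and injured tissue, were below intact animals at day 2 (-0.98 and -1.14) and above them at day 14 (1.27 and 1.01). Cthrc1, of collagen triple helix repeats and expressed in injured tissue, rose by 1.56, to 2.14 above intact animals. Fibronectin, Fn1, rose by 0.26.

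The genes of tendon and of small leucine-rich proteoglycans rose from a low day 2 level. Of 9 tendon and ligament genes 7 were higher, and of 12 small leucine-rich proteoglycans 8, with none lower in either. By a t-test with unequal variances 4 tendon genes and 2 proteoglycans were higher. With the replicate number by descriptions as a block, 6 and 5 were. Tnmd read 7.21, 6.59, 6.53 and 5.53 at day 2 and 8.66, 9.52, 9.51 and 8.69 at day 14 (2.63, SE 0.30, adjusted p = 2.6e-05), passing from 1.15 below to 1.48 above intact animals. Fmod read 10.64, 9.89, 8.36 and 8.72 and then 12.18, 12.00, 12.02 and 11.97 (2.64, SE 0.35). Its day 2 arrays were spread over more than 2 log2 units, whereas at day 14 they lay close together, at a mean 0.37 below that of intact animals. Kera, which the lists of tendon and proteoglycan genes share with Fmod, rose by 2.40 (SE 0.40), to 0.20 above intact. The tendon transcription factor Scx rose by 0.55 and Mkx, another, was not called (0.19, adjusted p = 0.31). Asporin, Aspn (1.20), osteomodulin, Omd (1.04, lost in 4 of 8 fits without 1 array), and biglycan, Bgn (0.44), rose, while decorin, Dcn (0.15, adjusted p = 0.24), and lumican, Lum (0.26, adjusted p = 0.099), were not called. Of 15 elastic fibre genes 7 rose, among them the microfibril proteins Mfap4 (1.90), Mfap2 (1.54) and Mfap5 (1.49), the latent TGF-beta binding protein Ltbp4 (1.31) and elastin, Eln (0.99), to within 0.04 of intact animals. Fibrillin, Fbn1, was not called (0.03, adjusted p = 0.94), and Emilin2 (-0.53), named after its value was seen, was the 1 that fell.

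Cartilage genes showed 2 kinds of course. Over 27 measured, the median difference between the days was -0.01, with the list 1.23 below intact animals at day 2 and 1.20 below at day 14, and 6 rose while 1 fell. Acan, which encodes the large proteoglycan aggrecan, read 10.97, 10.24, 8.77 and 9.00 at day 2 and 11.62, 11.44, 11.40 and 11.62 at day 14. It rose by 1.78 (SE 0.36, adjusted p = 0.003), to 0.07 from the intact level. Col2a1, the main collagen of hyaline cartilage, read 10.75, 9.82, 7.25 and 8.32 and then 9.83, 8.99, 7.36 and 9.00, against 11.24 to 12.28 in intact animals. The arrays of the days overlapped throughout, and its difference of -0.24 had an SE of 0.66 (adjusted p = 0.89). Cilp, a protein of the middle zone of cartilage, read 6.57 to 7.40 and then 8.21 to 8.67 (1.41, SE 0.18), still 2.56 below intact animals. Its relative Cilp2 (1.32), the chondrocyte transcription factor Sox5 (1.14) and, named after their values were seen, Col11a1 (1.01) and the matrilin Matn4 (1.07) rose, and Runx3 (-0.51), named likewise, fell, the calls of Col11a1 and Runx3 each being lost in 2 of 8 fits without 1 array. The chondrocyte regulator Sox9 (0.17, adjusted p = 0.36) and the growth plate protein Ucma (-0.04, adjusted p = 0.96) were not called, and Ucma stayed 2.81 and 2.85 below intact animals.

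Genes of joint lubrication and the synovial lining rose in 9 of 16, with none lower. By a t-test with unequal variances 3 of them were higher. Hyaluronan synthase Has1 (1.23), the hyaluronan-degrading protein Cemip (1.19), the growth factor Hbegf (1.25) and Creb5 (1.14), a transcription factor of lining cells, were among them, and Hbegf and Creb5 remained 0.85 and 0.63 below intact animals. Lubricin, Prg4, was not called (0.23, adjusted p = 0.21). Has2 stayed 1.21 and 1.54 above intact animals on the 2 days (0.33 between them, adjusted p = 0.49).

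Matrix metalloproteinases rose in 8 of 18 and fell in none. Mmp12 read 8.04, 7.94, 7.58 and 8.75 at day 2 and 10.74, 10.70, 10.82 and 11.31 at day 14, against 6.95 to 8.08 in intact animals, a 7.03-fold rise (SE 0.26 on the log2 scale, adjusted p = 4.8e-06). It is made by macrophages, and it rose while 25 of the 35 macrophage markers fell. Mmp14, the membrane-bound collagenase, read 10.18 to 10.58 and then 11.55 to 11.73 (1.20, SE 0.10), and Mmp2 (0.81), which it activates, rose with it. Mmp13, the main collagenase of cartilage in rodents, read 11.29 to 11.64 at day 2 and 11.83 to 12.43 at day 14 (0.76, SE 0.23, adjusted p = 0.037), and its call was lost in 6 of 8 fits without 1 array (adjusted p up to 0.094). Stromelysin, Mmp3, was 1.51 above intact animals at day 2 and 2.29 above at day 14, and its difference of 0.77 between the days was not called (adjusted p = 0.056). Of 19 ADAMTS genes 10 rose and none fell, led by the fibrillin-binding Adamtsl4 (1.22) and the procollagen enzymes above. The median of the list against intact animals was -0.30 at day 2 and 0.02 at day 14. The aggrecanases Adamts4 (0.18, adjusted p = 0.58) and Adamts5 (0.07, adjusted p = 0.88) and the protease Adamts1 (-0.17, adjusted p = 0.61) were not called, with Adamts4 at 1.80 and 1.97 above intact animals and Adamts5 near intact on both days. Of 18 inhibitors 7 rose, among them Wfdc1 (1.45), Pi15 (0.98) and Timp3 (0.94), which binds to matrix and inhibits aggrecanases and was 1.52 below intact animals at day 2 and 0.57 below at day 14. Timp1 was not called (0.21, adjusted p = 0.29), at 1.02 and 1.23 above intact animals.

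Growth factor genes rose in part, and none of these 3 families had a member that fell. Of 30 TGF-beta and BMP genes 11 were higher, with medians against intact animals of -0.41 at day 2 and -0.10 at day 14. Tgfb3 read 8.82 to 9.01 at day 2 and 10.00 to 10.22 at day 14, against 9.83 to 10.13 in intact animals (1.17, SE 0.10, adjusted p = 2.4e-06), and Tgfb2 (1.19) and the receptor Acvr1 (0.89) rose as well, whereas Tgfb1 (-0.03, adjusted p = 0.93) and Bmp2 (-0.12, adjusted p = 0.70) were not called. Of 11 genes of insulin-like growth factors and their binding proteins 8 were higher. Medians of this list against intact animals were -0.20 at day 2 and -0.01 at day 14. Igf2 read 7.83, 7.73, 7.51 and 8.37 and then 9.21, 9.13, 9.69 and 9.41 (1.5, SE 0.18, adjusted p = 3.8e-05), within 0.08 of intact animals, and the binding proteins Igfbp6 (1.74), Igfbp5 (0.97) and Igfbp4 (0.93) rose with it. Igf1 rose by 0.40 (adjusted p = 0.022), a call lost in 3 of 8 fits without 1 array. With both marker means as covariates 7 TGF-beta and BMP genes and 5 of the insulin-like growth factor genes were higher.

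Of 42 WNT genes 18 were higher, with medians against intact animals of -0.34 at day 2 and -0.16 at day 14. Dkk3, a secreted relative of the Dickkopf antagonists, read 8.89, 8.42, 8.15 and 8.07 at day 2 and 10.46, 10.49, 10.49 and 10.33 at day 14 (2.06, SE 0.13, adjusted p = 3.5e-07), against 10.11 to 10.32 in intact animals. Rspo2 (1.69), which strengthens WNT signals, the receptor Fzd8 (1.03), the antagonist Sfrp2 (1.07) and the ligand Wnt5a (0.99) rose, and Wnt5a and Sfrp2 ended 1.20 and 1.05 above intact animals. Frzb, an antagonist of WNT made by chondrocytes, stayed 2.60 and 2.78 below intact animals, with no call between the days (-0.18, adjusted p = 0.59).

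Among bone genes, 4 of 11 osteoclast genes rose and 1 fell. The rise was in cathepsin K, Ctsk (0.89), the proton pump subunit Atp6v0d2 (1.34), the osteoclast-inducing ligand Tnfsf11 (1.12) and, named after its value was seen, its decoy Tnfrsf11b (0.44), which stayed 1.73 below intact animals. The receptor of that ligand, Tnfrsf11a (-0.73), fell. Ctsk is also made by activated fibroblasts. Of 15 osteoblast genes only the mineralisation regulators Enpp1 (1.16) and Ankh (0.54) rose, while the bone transcription factor Sp7 (0.24, adjusted p = 0.60) and osteocalcin, Bglap (-0.06, adjusted p = 0.94), were not called.

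Nerve and vessel transcripts changed in a few members. Of 15 Schwann cell and nerve fibre genes 4 rose and 1, Mbp (-0.41), named after its value was seen, fell, although another of its probe sets rose by 0.47 (adjusted p = 0.0063) and its call was lost in 5 of 8 fits without 1 array. Stmn2, a regulator of microtubules in growing neurons, read 6.48, 6.79, 7.25 and 6.10 at day 2 and 8.46, 7.92, 8.36 and 8.41 at day 14, against 7.34 to 7.99 in intact animals (1.63, SE 0.23, adjusted p = 0.00018). Uchl1 (1.10), an enzyme abundant in neurons, Pmp22 (0.53) and the growth cone protein Gap43 (0.51, adjusted p = 0.028, lost in 6 of 8 such fits) rose, and the Schwann cell and chondrocyte protein S100b was not called (0.71, adjusted p = 0.074). Of 15 neurotrophin and pain genes the receptors Gfra1 (1.70) and Gfra2 (1.22) of the GDNF family and Ntrk3 (1.14), for neurotrophin-3, rose, and Bdnf was not called (0.04, adjusted p = 0.93). Of 14 pericyte and smooth muscle genes 5 rose and none fell, with Rgs5 (0.63), Cspg4 (0.61), Myh11 (0.53), Tagln (0.51) and, named after its value was seen, Pdgfrb (0.48). Of 26 endothelial genes 5 fell, the leukocyte adhesion molecule Selp (-0.90), Vwf (-0.52), Mmrn2 (-0.34), Flt4 (-0.33) and, named after its value was seen, Icam2 (-0.31), whereas the junction protein Cdh5 was not called (0.04, adjusted p = 0.87). Single arrays left out ended the calls of Mmrn2 in 8 of 8 fits (adjusted p up to 0.14), Icam2 in 6 and Flt4 in 4. Without day 2 replicate 1, day 2 replicate 4 or day 14 replicate 2, 2 endothelial genes were lower, and without day 2 replicate 2 or day 14 replicate 1 or 4, 3.

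Fat cell genes went further below the intact level. Of 24 adipocyte genes 11 were lower at day 14 than at day 2 and none higher, at a median of -0.63, and the list stood 1.07 below intact animals at day 2 and 1.6 below at day 14. Adipoq, which encodes the hormone adiponectin, read 10.97, 10.66, 10.51 and 10.99 and then 10.31, 9.54, 9.80 and 9.51, against 11.24 to 12.15 in intact animals (-0.99, SE 0.28, adjusted p = 0.026). Its call was lost in 5 of 8 fits without 1 array (adjusted p up to 0.079). The lipid droplet proteins Cidec (-1.13) and Plin1 (-0.90) and the enzyme Pck1 (-0.91) fell with it, to 2.20, 2.02 and 2.0 below intact animals. Without day 14 replicates 2 and 3, 5 of the 24 were lower.

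Immediate early genes, which respond to growth factors and stress within minutes, rose in 9 of 21 and fell in none. Egr1 read 10.49, 10.53, 10.50 and 10.78 at day 2 and 11.40, 11.22, 11.30 and 11.49 at day 14 (0.78, SE 0.12, adjusted p = 0.00047), the level of intact animals. The nuclear receptors Nr4a2 (1.18) and Nr4a1 (1.03) and the phosphatase Dusp1 (0.95) also rose, while Fos was not called (0.43, adjusted p = 0.16). Of 14 clock genes 6 rose and 2 fell. Npas2, the partner of Bmal1, read 8.53 to 9.14 at day 2 and 10.80 to 11.18 at day 14 (2.06, SE 0.15, adjusted p = 7.6e-07), and Bmal1 (1.05), Rora (0.89) and Nr1d1 (0.67, adjusted p = 0.025) rose, whereas Per1 was not called (-0.43, adjusted p = 0.061) and Per3 (-0.55) and Tef (-0.49), named after their values were seen, fell. The hour of tissue collection is not given in the sources used here. With the muscle mean as a covariate 3 clock genes rose, and without day 14 replicate 3, the array with the most muscle signal, 3 as well. Nr1d1 was lost in 5 of 8 fits without 1 array and Tef in 4.

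Stress and respiratory chain genes moved little between the days, and glycolysis, integrin and laminin genes moved in part. Of 24 stress genes 4 fell and 2 rose, near the background of 11.7% and 9.62%. The fall was in haem oxygenase, Hmox1 (-0.75), which was 2.15 above intact animals at day 2 and 1.41 above at day 14, the glutathione enzyme Gclc (-0.84) and the regulator Nfe2l2 (-0.38), with Prdx1 (-0.35) named after its value was seen. The chaperone Hspb1 (0.74) and, named likewise, Atf4 (0.28) rose, Atf4 being lost in 2 of 8 fits without 1 array. Of 20 glycolysis and hypoxia genes 6 rose, led by the lactate exporter Slc16a3 (1.00) and the transcription factor Bhlhe40 (0.61), and hexokinase 2, Hk2 (-0.25), fell, a call lost in 3 of those fits. None of 21 respiratory chain genes was called in either direction, although 6 were lower without day 14 replicate 3. Against intact animals 16 were higher at day 2 and 12 at day 14 (19.8% and 12.2% of all genes), and none was lower. Of 26 integrin and laminin chains 7 rose, led by the collagen receptor Itga11 (1.38) and the laminin chain Lama2 (1.18), and 4 fell, Itgb7 (-0.87), Itga4 (-0.44), Itga6 (-0.42) and Itga1 (-0.28), named after their values were seen, the first 2 of them chains of leukocytes. Itga1 was lost in 7 of 8 fits without 1 array (adjusted p up to 0.13) and Itga4 in 4, and without day 14 replicate 1, 3 or 4, 2 of the list fell. The common beta chain Itgb1 was not called (0.01, adjusted p = 0.95).

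Skeletal muscle genes had the largest median of all lists, 2.11, with 3 of 25 called. Acta1, skeletal actin, read 9.92, 9.72, 8.35 and 11.12 at day 2 and 11.70, 12.07, 13.39 and 11.41 at day 14 (2.36, SE 0.85, adjusted p = 0.082). Parvalbumin, Pvalb, of fast fibres, read 5.11 to 7.14 and then 8.56 to 11.39 (3.58, SE 0.89, adjusted p = 0.012), and intact arrays read 5.65 to 9.98, overlapping both days. Casq1 (3.34) and Myl11 (3.06) were the other calls, and the creatine kinase Ckm was not called (2.34, adjusted p = 0.12). Of the 25, 1 was called without day 2 replicate 1, 2 or 3 or day 14 replicate 3, 5 without day 2 replicate 4 and none without day 14 replicates 2 and 3. A fit of the 8 arrays alone called 7, and adding the replicate number as a block called 1 by titles and 16 by descriptions. Of 12 muscle regeneration genes Ncam1 (0.70), which nerve and other cells also make, was the only 1 called.

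Some genes crossed the intact level between the days, called on both sides of it. Dio2, which activates thyroid hormone, went from 1.19 below to 1.08 above (2.27 between the days, SE 0.16, adjusted p = 5e-07), and the membrane protein Itm2a from 0.91 below to 0.81 above. In the other direction Crabp1 went from 0.90 above to 0.84 below, Erbb3 from 1.13 above to 0.53 below, Asgr2, a lectin also found on myeloid cells, from 0.73 above to 0.70 below, the calcineurin-like Chp2 from 0.69 above to 0.54 below, and cyclin E1, Ccne1, from 0.49 above to 0.51 below. Others came back to within 0.25 of intact animals from a low day 2 level. Among them were Nupr1 (2.08), a stress-induced chromatin protein, and the matrix proteins Fbln7 (2.19), Mamdc2 (1.93) and Smoc1 (1.79). Further genes with a large day 2 difference had almost the same difference at day 14, and their number was not counted. Among them were Ptx3 (1.66 and 1.55), a soluble pattern receptor, the natural killer receptor Klra5 (1.86 and 1.72), the lymphatic growth protein Ccbe1 (2.09 and 2.09) and the zinc finger gene Zfp385b (-2.76 and -2.89), given as day 2 and day 14 against intact animals.

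MicroRNA genes were examined after their values had been seen. MicroRNAs are short RNAs that pair through their seed, bases 2 to 8, with target transcripts. The labelling began from oligo(dT), so these probe sets read the long precursor transcripts or their hosts, and no level of a mature microRNA was measured. Of 363 microRNA genes 43 were higher (11.8%) and 7 lower (1.93%) at day 14, and 330 were found in the RefSeq table of GRCr8. The largest group lay on the + strand of chromosome 6, between 134543445 and 134579838, in the imprinted region of Dlk1, Meg3 and Dio3, where 17 of 30 were higher and none lower. Its median was 0.65 between the days, -0.40 for day 2 and 0.15 for day 14 against intact animals. A second + strand stretch of chromosome 6, between 134298084 and 134331416, had 2 of 9 higher and none lower, at a median of 0.29. The noncoding gene Meg3 of that region read 6.71, 6.54, 6.76 and 6.86 at day 2 and 7.56, 7.79, 8.22 and 7.98 at day 14 (1.17, SE 0.15, adjusted p = 8.4e-05), and Dlk1 rose by 1.13 (adjusted p = 0.0025). The mature forms of the members with large differences are shown with the seed in capitals, to show that no 2 of them share a seed although their genes stand side by side.
rno-miR-377-3p: uGAAUCACacaaaggcaacuuuu
rno-miR-323-3p: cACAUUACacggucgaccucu
rno-miR-1193-3p: uAGGUCACccguuuuacuaucc
rno-miR-300-3p: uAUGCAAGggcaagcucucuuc
rno-miR-539-5p: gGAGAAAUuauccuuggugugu
rno-miR-154-3p: aAUCAUACacgguugaccuauu
rno-miR-410-3p: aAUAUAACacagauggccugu

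Mir377 read 3.28, 3.68, 3.36 and 3.18 at day 2 and 5.42, 5.39, 6.18 and 5.44 at day 14 (2.23, SE 0.25, adjusted p = 2.2e-05), against 3.27 to 4.54 in intact animals. Mir323 read 4.54 to 4.88 and then 5.81 to 6.89 (1.65, SE 0.21). Mir1193 (1.52), Mir300 (1.49), Mir539 (1.46), Mir154 (1.44) and Mir410 (1.32) followed, and no microRNA gene of the stretch fell. Day 14 replicate 3, the array with the most muscle signal, was the highest for Mir377, Mir323 and Meg3. With the muscle mean as a covariate 12 of the 30 were higher, and without day 14 replicates 2 and 3, 14. Leaving out probe sets with a mean under 5 left 8 called. These probe sets are dim, with means over all arrays from 2.82 for Mir369 to 7.01 for Mir666 among those that rose.

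**Figure D4:**
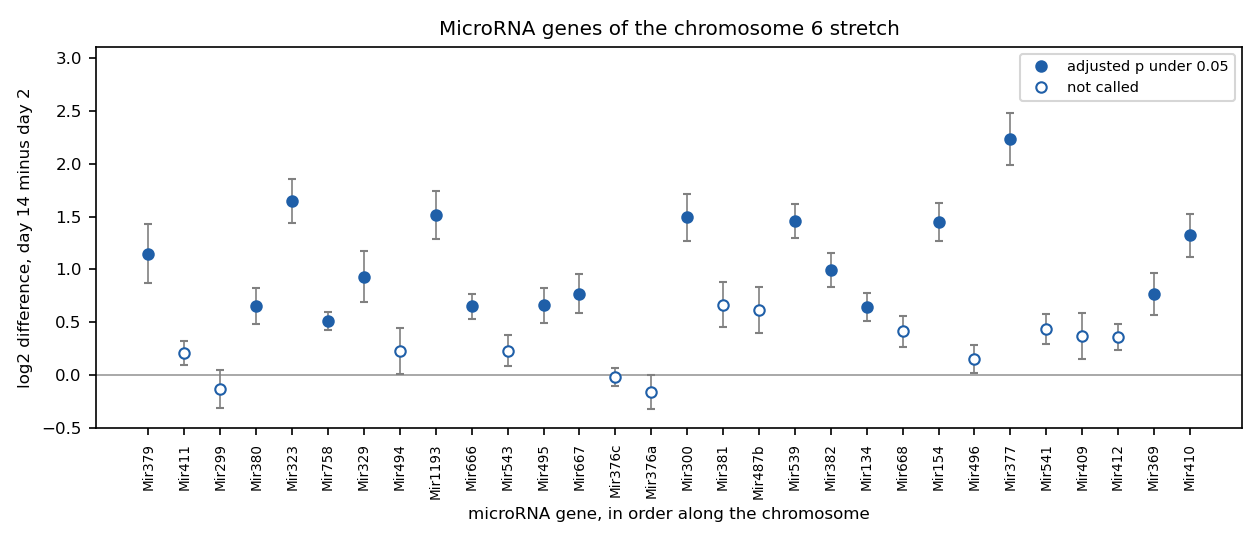
Log2 difference between day 14 and day 2 (y axis; points, estimate; bars, SE) of the 30 microRNA genes of the chromosome 6 stretch in their order along it (x axis). Filled points have an adjusted p under 0.05, of which there are 17, all above 0, and the highest is Mir377.

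The other microRNA genes that rose included Mir145 (1.25), of smooth muscle, Mir100 (1.08) and Mirlet7c1 (1.10), and Mir140, which chondrocytes express. Mir140 read 6.35, 6.03, 6.17 and 5.98 at day 2 and 7.18, 7.05, 7.04 and 7.04 at day 14 (0.94, SE 0.18, adjusted p = 0.0015), and was still 1.13 below intact animals. The 7 that fell were Mir142, Mir144, Mir223, Mir19b2, Mir511, Mir451a and Mir19b1. Mir142, of blood cells, read 7.03 to 7.20 at day 2 and 4.87 to 6.08 at day 14 (-1.56, SE 0.21). Mir223, of neutrophils and other myeloid cells, read 8.55, 8.63, 8.84 and 8.86 at day 2 and 6.51, 8.52, 7.20 and 6.79 at day 14 (-1.46, SE 0.43, adjusted p = 0.032), so that day 14 replicate 2, with the most marrow signal, nearly reached day 2. Its call was lost in 7 of 8 fits without 1 array (adjusted p up to 0.1), and without day 2 replicate 3 or day 14 replicate 3, 4 microRNA genes fell. Mir511 lies within Mrc1, the mannose receptor gene described above, and read 5.78 to 6.65 and then 4.87 to 5.67 (-0.93, SE 0.25, adjusted p = 0.02), a call lost in 3 of 8 fits without 1 array (adjusted p up to 0.07). Its mature form and those of the cartilage and blood cell genes are shown with the seed in capitals.
rno-miR-511-3p: aAUGUGUAgcaaaagacagga
rno-miR-140-3p: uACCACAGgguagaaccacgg
rno-miR-142-3p: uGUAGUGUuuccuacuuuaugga
rno-miR-223-3p: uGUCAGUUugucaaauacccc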

How the data were processed

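RNA of 2 rats was pooled per array (4 arrays and 8 rats per group), and each array was taken as 1 sample. Per the labels, the log2 values the authors deposited came from RMA in oligo 1.36.1, whereas the study's methods name Affymetrix's own GeneChip software, followed by a subtracted background, quantile scaling and log2. These values were used as they stood. The number of arrays limits the precision, and p-values measure the spread between these pools. Groups and replicate numbers came from the sample titles.

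All 16 arrays entered 1 linear model with a mean for each group in limma 3.58.1 in R 4.3.3 (lmFit, eBayes, 2.86 prior and 12 residual degrees of freedom), and Benjamini-Hochberg adjustment ran over 36685 probe sets. Of these, 18511 had exactly 1 symbol in the platform annotation, 575 several and 17599 none. Plots were drawn with matplotlib 3.10.9 in Python 3.11.15. Simulated data had independent normal noise for every probe set, with 66 or 67 of 36685 changed by each size. Differences of 0.5, 1 and 2 were called in 31.3%, 82.1% and 97% of changed probe sets, and 7.89% of calls were unchanged ones. Far fewer probe sets were changed than were called in the data, and none shared a shift of an array. These shares may therefore not hold for the data. Alternatives were other normalisations, filters, tests, replicate blocks, covariates of the muscle and marrow means, and fits without 1 array or, chosen after seeing the data, without day 14 replicates 2 and 3.

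Genes were named by rule: per direction the 15 largest called differences over 2-fold without overlap of the days; key members and up to 4 called members of each list; up to 6 genes per direction that crossed the intact level and 6 that came back to within 0.25 of it; and up to 4 that kept their day 2 difference. Members of small groups outside the rule are marked as named after their values were seen, as are Meg3, Dlk1 and all microRNA genes. The 47 lists rest on general knowledge, and they and the comparison were chosen with earlier results of these data known. Lists are described by counts and medians, without a test. Sequences came from RefSeq tables on GRCr8. The array build is not given in the sources used here.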

Additional observations from a re-analysis of the deposited data

Results flagged for a closer look

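Among the genes and lists whose arrays are given above, 118 groups of 4 arrays were checked for an array far from the other 3, and 6 were found, where chance alone gives about 1 in 20 groups. Ly49si1 read 2.97 on day 14 replicate 3 against 4.75 to 5.10 on the others. Mir377 read 6.18 on the same array against 5.39 to 5.44. Flt3 read 9.03 on day 2 replicate 3 against 8.72 to 8.78. Egr1 read 10.78 on day 2 replicate 4 against 10.49 to 10.53. Dkk3 read 10.33 on day 14 replicate 4 against 10.46 to 10.49. Mir140 read 7.18 on day 14 replicate 1 against 7.04 to 7.05. In each of these 6 the arrays of day 2 and day 14 did not overlap, which for Ly49si1 was a condition of its being named.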

How the results depend on the processing

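Against 2460 probe sets higher and 2871 lower, the 8 fits that each left out 1 array gave 1957 to 2506 and 2169 to 2838, and 389 to 474 and 261 to 522 past 2-fold, where the highest of the last count came without day 14 replicate 2 and the lowest without day 14 replicate 3. Muscle and marrow means together as covariates gave 1498 higher and 1652 lower. A t-test with unequal variances between the 2 days gave 1366 and 1402 after Benjamini-Hochberg adjustment, and 106 and 33 at the study's thresholds of p and fold. The study itself used a t-test of MIA against intact animals after an ANOVA, and does not state the variance setting. Centring each array on its median gave 2036 higher and 3320 lower, a share of 38.0% higher against 46.1%. Deviations of same-numbered arrays correlated at -0.0658 to -0.00802 by the titles and -0.047 to 0.169 by the descriptions, which number day 2 differently. Arrays of different numbers were not compared in this way, so whether the numbers pair samples cannot be told. The fits with the replicate number as a block used the 8 arrays of the 2 days alone. Without a block these 8 arrays gave 2203 higher and 2439 lower. With it the counts were 1487 and 1439 by titles and 1605 and 1530 by descriptions. By descriptions 15 macrophage genes were lower and 16 muscle genes higher, against 23 and 7 in the 8 arrays without a block. The calls of 291 genes were followed, which took in all 50 called microRNA genes, also those not named above. Of the 291, 148 held in all 21 settings, and 6 held in 20 because the filter on dim probe sets left them out. The other 137 lost the call in at least 1, and the cause was not tested. Mbp turned to 0.0305 (adjusted p = 0.84) when the probe sets of a gene were averaged. Signal over background per probe set is not given in the sources used here, so dim probe sets could not be set apart by detection.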
